A study of Mus musculus with 16 samples.

Results

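The 10 genes described here are the 7 mouse genes for the subunits of AMP-activated protein kinase (AMPK), the gene for its upstream kinase LKB1 (Stk11), and Txnip and Arrdc4, a pair of arrestin-domain genes that respond to glucose. They were taken by symbol from a table of 55492 genes in RNA sequencing of the left ventricle, and 10 of 10 were listed. The 16 hearts came from male C57BL/6 mice aged 8 to 12 weeks, 1 library per mouse. There were 2 baseline hearts, 3 sham-operated hearts and 3 hearts with myocardial infarction (MI) of each genotype, and the operated hearts were taken 3 days after surgery. The control genotype, PKM2fl/fl, carries floxed alleles of the M2 exon of pyruvate kinase muscle (Pkm). The PKM2-/- mice lack that exon in every tissue, from a germline deletion made with CMV-driven Cre, and the Cre allele was then bred out. MI was made by ligation of the left anterior descending artery, and the tissue sequenced was a mixture of all the cells of the ventricle.

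AMPK is a kinase that is switched on when AMP and ADP accumulate, and it turns cells toward making ATP. Each complex holds a catalytic alpha subunit (encoded by Prkaa1 or Prkaa2), a scaffolding beta subunit (Prkab1 or Prkab2) and a nucleotide-binding gamma subunit (Prkag1, Prkag2 or Prkag3), and cardiac myocytes are known for the alpha2 form. Txnip and Arrdc4 are targets of the glucose-responsive transcription factors MondoA and ChREBP. Their products lower glucose uptake, and TXNIP, which also binds thioredoxin, is itself a substrate of AMPK.

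The start regions of Txnip and Arrdc4 are shown because glucose-responsive transcription is thought to act through paired CACG motifs. In the RefSeq promoter windows (GRCm38.p6, which is mm10; 250 bases before to 50 bases after a gene's start), all 10 genes had an entry, with 12 windows in all. The letters CACGNNNNNNNCACG, sought on both strands, were in 1 window of the 12, that of Txnip, and in 0.615% of all 32851 windows. The letters CACGTG were also in 1 window, that of Arrdc4, and in 7.15% of all windows. The first sequence below covers chr3:96557817-96557956 on the plus strand, the 140 bases that end just before the start of Txnip. The other covers chr7:68749319-68749458 on the minus strand, from 220 to 81 bases before the start of Arrdc4. Capitals mark the matched letters, and each sequence runs 5′ to 3′ on the strand of its gene.
Txnip: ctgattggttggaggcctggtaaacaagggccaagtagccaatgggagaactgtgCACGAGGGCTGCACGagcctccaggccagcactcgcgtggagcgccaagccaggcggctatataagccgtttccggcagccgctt
Arrdc4: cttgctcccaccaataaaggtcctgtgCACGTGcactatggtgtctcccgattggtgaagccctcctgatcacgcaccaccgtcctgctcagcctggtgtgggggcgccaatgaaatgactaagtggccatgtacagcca

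Values are read counts per gene divided by the library's size factor, called normalized counts, and libraries held 20623769 to 71855101 counted reads. Differences are given as log2 fold changes of the normalized count plus 1 with their standard error (SE), from limma fitted to 20576 genes over all 16 libraries, and a gene was called at a Benjamini-Hochberg adjusted p under 0.05. All 10 genes passed the filter of a mean of at least 10. Whole-gene Pkm, which the loss of a single exon need not lower, was 7779 to 9602 in uninjured PKM2fl/fl hearts and 11710.1 to 14242 in uninjured PKM2-/- hearts, so it does not check the deletion. The share of reads on 1 locus, CT010467.1, ranged from 0.111% to 25.1% between libraries and differed between groups. It was 0.111% to 1.39% in uninjured PKM2fl/fl hearts and at least 4.14% in every uninjured PKM2-/- heart. After MI it was 1.72% to 25.1% in PKM2fl/fl and 2.13% to 17.4% in PKM2-/- hearts. The part of this locus in the comparisons was not tested. Summed over 8 cardiomyocyte markers (Myh6, Tnnt2, Tnni3, Actc1, Ryr2, Pln, Myl2 and Actn2), the uninjured hearts held 789413 to 1016909.9, and all 8 were detected in every library. After MI the same sum was 406338, 381866 and 176807 in the PKM2fl/fl hearts and 262177, 187783 and 181446 in the PKM2-/- hearts. The library of the third PKM2fl/fl MI heart therefore stood apart from the other two in its group, and results that rest on it are given with and without it.

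In the 10 uninjured (baseline and sham) hearts, the level per kilobase of exon was highest for Txnip, at 3089.7 ± 1038 (SD, n = 10), and lowest for Prkag3, at 7.0 ± 1.66. Between them came Prkaa2 with 512 ± 45.3 per kilobase, Stk11 with 395 ± 37.8, Prkag1 with 356 ± 23.4 and Prkab1 with 185 ± 31.3. Prkag2, at 121 ± 9.79 per kilobase, and Prkaa1, at 119 ± 9.37, were next, then Prkab2 at 87.9 ± 11.4 and Arrdc4 at 78.0 ± 11.8. The ranges of neighbours in this order overlapped except at 4 steps, from Txnip to Prkaa2, from Prkag1 to Prkab1, from Prkab1 to Prkag2 and from Arrdc4 to Prkag3. In the 6 MI hearts Txnip was again highest per kilobase, at 1490.0 ± 237, but Prkaa2 came after Stk11 and Prkag1, at 185 ± 54.8. Its range overlapped that of Prkag1 and that of Prkaa1 at 178 ± 26.9. Such an order between genes rests on the length used. Exonic lengths were 8335 bases for Prkaa2, 4983 for Stk11 and 3897 for Prkag1, and coding lengths were 1656, 1719 and 1107. The order by coding length is not given here.

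Counts of 7 of the 10 genes come from loci that overlap another gene of the table, and all these partners lie on the opposite strand. The strand setting and the annotation of the counting are not given in the sources used here. Reads from bases that a gene shares with its antisense partner therefore cannot be told apart. In GENCODE M39, the exon bases shared with the partner named below were 928 of 3167 for Txnip and 1511 of 3897 for Prkag1. They were 242 of 5321 for Prkaa1, 237 of 4983 for Stk11 and 0 of 3066 for Prkab1. Txnip (chr3:96557957-96561857, plus strand) was counted beside the long noncoding RNA Gm15441, whose reads were 100.2% to 100.7% of those of Txnip in every library. B130046B21Rik, antisense to Prkag1, held 66.4% to 82.9% of the reads of Prkag1, and Gm15938, antisense to Prkaa1, held 53.2% to 64.2% of the reads of Prkaa1. Gm14508, antisense to Prkab1, held 41.1% to 55.6% of the reads of Prkab1. Cbarp, antisense to Stk11, held 4.7% to 10.5% of its reads, and no partner of Prkag2 exceeded 6.06%. Prkag3 shares 1088 of its 6489 exon bases with Cyp27a1, a sterol hydroxylase gene on the other strand that had 513% to 1654% of the reads of Prkag3. Prkaa2, Prkab2 and Arrdc4 had no such partner in the table.

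At 3 days after MI, the gene of the alpha2 catalytic subunit fell and that of alpha1 rose in both genotypes. Prkaa2 (chr4:105029649-105109898, minus strand) had normalized counts of 4224, 3622 and 4239 in the PKM2fl/fl sham hearts and 2071, 2144 and 1316 in the PKM2fl/fl MI hearts. In the PKM2-/- mice the counts were 3837, 4435 and 3899.8 after sham surgery and 1433, 1127 and 1137 after MI. Every MI heart lay below every sham heart, and the third PKM2fl/fl MI heart sat among the PKM2-/- MI hearts. The fall was 2.23-fold in PKM2fl/fl (log2 fold change -1.16 ± 0.16 SE, adjusted p = 2.5e-05) and 3.30-fold in PKM2-/- (log2 fold change -1.72 ± 0.16 SE, adjusted p = 5.4e-07). Prkaa1 (chr15:5143861-5181899, plus strand) had counts of 606, 616 and 580.4 in PKM2fl/fl sham hearts and 791, 783 and 1153 in PKM2fl/fl MI hearts. The PKM2-/- counts of Prkaa1 were 545, 632 and 662 after sham surgery and 981, 943 and 1033 after MI. The groups did not overlap here either, and the rise was 1.49-fold in PKM2fl/fl (log2 fold change 0.57 ± 0.13 SE, adjusted p = 0.0017) and 1.61-fold in PKM2-/- (log2 fold change 0.69 ± 0.13 SE, adjusted p = 3.2e-04). With libraries scaled to their total counts in place of the size factors, the rise of Prkaa1 in PKM2fl/fl was no longer called (0.40, adjusted p = 0.33).

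**Figure D1:**
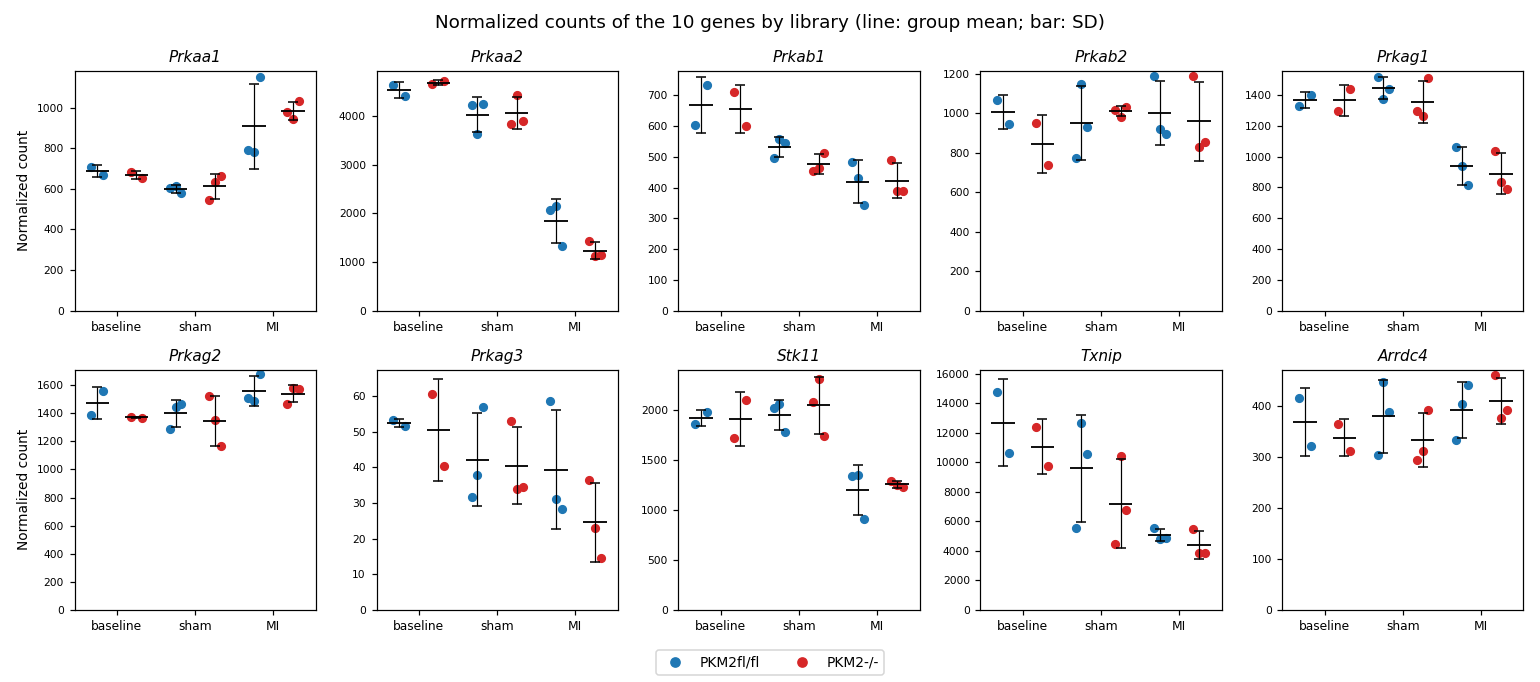
Normalized counts of the 10 genes, one point per library, by condition on the horizontal axis and genotype by colour (blue PKM2fl/fl, red PKM2-/-), with the group mean as a line and the SD as a bar; each vertical axis starts at 0. Prkaa2 drops from 3622 to 4435 in the sham hearts to 1127 to 2144 in the MI hearts, while Arrdc4 ranges from 294 to 461 over all 16.

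Of the 10 genes, 6 were called between MI and sham in PKM2fl/fl hearts (1 higher, 5 lower), against 50.1% of all 20576 genes tested (24.8% higher, 25.3% lower). In PKM2-/- hearts 4 were called (1 higher, 3 lower), against 56.8% of all genes (28.7% higher, 28.1% lower). A share of 6 or 4 in 10 is thus close to that of the whole transcriptome. Their log2 fold changes had a median of -0.24 in PKM2fl/fl and -0.40 in PKM2-/-, beside -0.0025 and 0.010 over all genes. With a change of at least 2-fold also required, only Prkaa2 among the 10 genes was called in either genotype, where 23.5% of all genes were in PKM2fl/fl and 28.8% in PKM2-/-. The groups compared in the 2 genotypes share no libraries, but both comparisons use 1 estimate of the spread from all 16 libraries.

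The upstream kinase and the gamma1 subunit fell together with Prkaa2. Stk11 (chr10:80115767-80130679, plus strand), which encodes LKB1, the kinase that phosphorylates AMPK in its activation loop, had counts of 2019, 2064 and 1783 in PKM2fl/fl sham hearts and 1345, 1347 and 906 in PKM2fl/fl MI hearts. Its counts in PKM2-/- hearts were 2085, 2310.3 and 1745 after sham surgery and 1294, 1251 and 1225 after MI. No MI heart reached the lowest sham heart, and the fall was 1.65-fold in PKM2fl/fl (log2 fold change -0.73 ± 0.14 SE, adjusted p = 6.9e-04) and 1.62-fold in PKM2-/- (log2 fold change -0.69 ± 0.14 SE, adjusted p = 7.8e-04). Prkag1 (chr15:98812797-98831508, minus strand), which encodes the widely expressed gamma1 subunit, had counts of 1519.9, 1377 and 1439 in PKM2fl/fl sham hearts and 1062, 939 and 814 in PKM2fl/fl MI hearts. For PKM2-/- hearts the counts of Prkag1 were 1294, 1263 and 1512 after sham surgery and 1039, 838 and 788 after MI. Again the groups were apart, with a fall of 1.55-fold in PKM2fl/fl (log2 fold change -0.63 ± 0.12 SE, adjusted p = 4.9e-04) and 1.53-fold in PKM2-/- (log2 fold change -0.62 ± 0.12 SE, adjusted p = 4.5e-04). Under total-count scaling, which moves the median log2 fold change of all genes to 0.52 in the PKM2-/- comparison and to -0.18 in the PKM2fl/fl one, neither fall was called in PKM2-/- (-0.18 for Stk11, adjusted p = 0.66, and -0.10 for Prkag1, adjusted p = 0.80). Relative to that shift, the changes in PKM2-/- were -0.70 for Stk11 and -0.62 for Prkag1.

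Of the other 4 subunit genes, Prkab1 was called in PKM2fl/fl only, and Prkab2, Prkag2 and Prkag3 in neither genotype. Prkab1 (chr5:116013586-116024503, minus strand), for the beta1 scaffold, had counts of 495, 556 and 544 in PKM2fl/fl sham hearts and 482, 432 and 343 in PKM2fl/fl MI hearts, a fall of 1.28-fold (log2 fold change -0.35 ± 0.14 SE, adjusted p = 0.044). That call was lost in 7 of 8 other analysis settings (adjusted p from 0.045 to 0.19 over the 8) and when any of 8 of the 16 libraries was left out. Among those 8 libraries were all 3 PKM2fl/fl sham hearts and the second and the third PKM2fl/fl MI hearts, and the value nearest 0 was -0.22 without the third PKM2fl/fl MI heart (adjusted p = 0.20). The other 3 were the first and second PKM2-/- sham hearts and the second PKM2-/- MI heart, whose loss changed only the estimate of the spread (adjusted p of 0.051 to 0.052). In PKM2-/- hearts, Prkab1 had a log2 fold change of -0.18 ± 0.14 (adjusted p = 0.28). Prkab2 (chr3:97658211-97673812, plus strand), for the beta2 scaffold that predominates in striated muscle, ranged from 773 to 1191 over the 12 sham and MI hearts, and its groups overlapped in both genotypes (log2 fold change 0.08 ± 0.17 SE, adjusted p = 0.70 in PKM2fl/fl, and -0.09, adjusted p = 0.65, in PKM2-/-).

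Prkag2 (chr5:24862735-25106282, minus strand), whose mutations cause a cardiac glycogen storage disease in people, had counts of 1291, 1444 and 1465 in PKM2fl/fl sham hearts and 1509, 1488 and 1684 in PKM2fl/fl MI hearts. Its PKM2-/- counts were 1522, 1354 and 1167 after sham surgery and 1469, 1581 and 1572 after MI. The PKM2fl/fl groups did not overlap but the difference was not called (log2 fold change 0.16 ± 0.10 SE, adjusted p = 0.22), and the PKM2-/- groups overlapped (log2 fold change 0.20 ± 0.10 SE, adjusted p = 0.11). Without the first PKM2-/- sham heart the PKM2-/- value was 0.29 and was called (adjusted p = 0.029), and under total-count scaling it was 0.71 (adjusted p = 0.045). Relative to the shift of all genes under that scaling (0.52), the value was 0.20. Prkag3 (chr1:74738922-74749471, minus strand), for the gamma3 subunit of fast skeletal muscle, was low in every heart, with counts of 14.4 to 60.6 over all 16. The fast skeletal myosin genes Myh1, Myh2 and Myh4 were at 0 to 5.83 in the same libraries. Its log2 fold change was -0.13 ± 0.37 in PKM2fl/fl (adjusted p = 0.79) and -0.76 ± 0.37 in PKM2-/- (adjusted p = 0.090). Without the first PKM2-/- MI heart the latter became -1.08 and was called (adjusted p = 0.026).

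**Figure D2:**
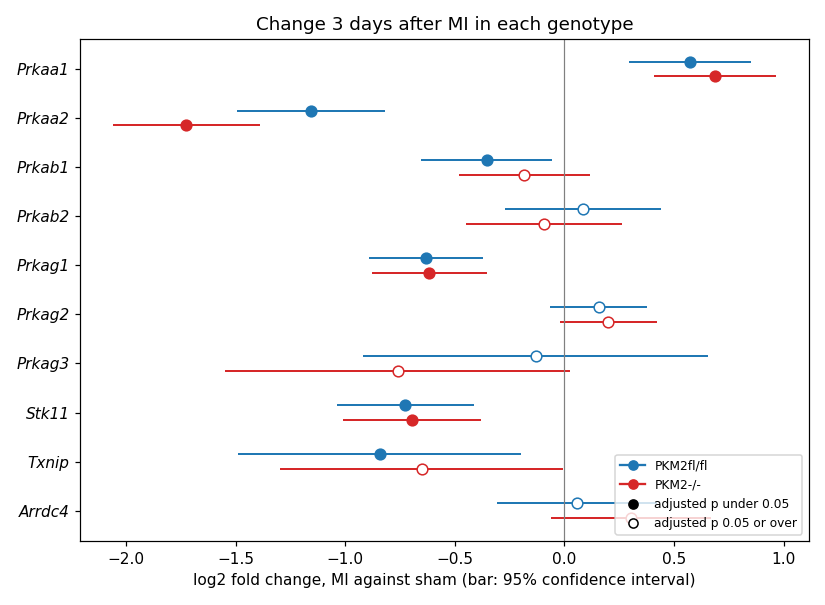
Log2 fold change of each gene between MI and sham hearts on the horizontal axis, with 95% confidence intervals from limma, in PKM2fl/fl (blue) and PKM2-/- (red); filled circles have an adjusted p under 0.05. The largest change in both genotypes is that of Prkaa2, at -1.16 and -1.72, and the intervals of Prkab2, Prkag2, Prkag3 and Arrdc4 cover 0 in both.

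Of the arrestin-domain genes, Txnip fell in PKM2fl/fl hearts, and Arrdc4 was called in neither genotype. Txnip had counts of 5559.5, 12667 and 10538 in PKM2fl/fl sham hearts and 5523, 4808 and 4848 in PKM2fl/fl MI hearts. The counts of Txnip in PKM2-/- hearts were 4432, 10393 and 6752 after sham surgery and 5471, 3847 and 3814 after MI. The first sham heart of each genotype lay near the MI hearts, so that the PKM2fl/fl groups were barely apart and the PKM2-/- groups overlapped. Txnip fell 1.79-fold in PKM2fl/fl (log2 fold change -0.84 ± 0.30 SE, adjusted p = 0.029), and in PKM2-/- the difference was not called (log2 fold change -0.65 ± 0.30 SE, adjusted p = 0.077). The PKM2fl/fl call was lost without the second sham heart (-0.60, adjusted p = 0.14), the third sham heart (-0.73, adjusted p = 0.096), the second MI heart (adjusted p = 0.065) or the third MI heart (adjusted p = 0.065). The PKM2-/- difference was called without the first PKM2-/- sham heart (-0.96, adjusted p = 0.015), without the first PKM2fl/fl sham heart (adjusted p = 0.038) and by DESeq2 (adjusted p = 0.033). With other single libraries left out it came as near 0 as -0.34 (adjusted p up to 0.35). Under total-count scaling it was -0.14 (adjusted p = 0.77), and -0.65 relative to the shift of all genes. Between the genotypes, the MI effect on Txnip differed by 0.19 ± 0.42 (adjusted p = 0.93).

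Arrdc4 (chr7:68736994-68749238, minus strand) had counts of 303, 447 and 388 in PKM2fl/fl sham hearts and 332, 404 and 439.9 in PKM2fl/fl MI hearts. In PKM2-/- hearts its counts were 294, 311 and 393 after sham surgery and 461, 376 and 391 after MI. The sham and MI ranges overlapped in both genotypes, with a log2 fold change of 0.06 ± 0.17 in PKM2fl/fl (95% interval -0.30 to 0.42, adjusted p = 0.80) and 0.30 ± 0.17 in PKM2-/- (-0.05 to 0.66, adjusted p = 0.14). Under total-count scaling the PKM2-/- value was 0.82 and was called (adjusted p = 0.028). Relative to the shift of all genes under that scaling (0.52), it was 0.30.

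A ratio of counts within a library does not depend on the scaling, and its change between groups does not depend on gene length. Such ratios were compared over the 12 sham and MI hearts by a two-sided exact permutation test within genotype, with Benjamini-Hochberg adjustment over 8 ratio tests. There were 400 arrangements, so 0.005 is the smallest p they can give. The count of Prkaa2 was 5.88 to 7.30 times that of Prkaa1 in PKM2fl/fl sham hearts and 5.89 to 7.04 times in PKM2-/- sham hearts. After MI the ratio was 1.14 to 2.74 in PKM2fl/fl and 1.1 to 1.46 in PKM2-/-. All 6 MI hearts were below all 6 sham hearts, and the ratio was 4.21-fold lower after MI (difference -2.07 on the log2 scale, exact p = 0.005, adjusted p = 0.013).

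Prkag2 relative to Prkag1 moved the other way. Its count ratio was 0.849 to 1.05 in PKM2fl/fl and 0.772 to 1.18 in PKM2-/- sham hearts, and 1.42 to 2.07 and 1.41 to 2.00 after MI, a 1.74-fold rise with no overlap (difference 0.80, exact p = 0.005, adjusted p = 0.013). The ratio of Txnip to Arrdc4 was 18.4 to 28.4 and 15.1 to 33.4 in the PKM2fl/fl and PKM2-/- sham hearts and 11 to 16.6 and 9.76 to 11.9 after MI. It was 1.90-fold lower after MI (difference -0.93, exact p = 0.005, adjusted p = 0.013), with overlap only between the lowest PKM2-/- sham heart and a PKM2fl/fl MI heart. The ratio of Prkab2 to Prkab1 differed by 0.26 (exact p = 0.025) and had an adjusted p of 0.05, which did not pass. It passed without the first PKM2-/- sham heart (adjusted p = 0.02) or the second PKM2-/- MI heart (adjusted p = 0.03). Between genotypes, over all 16 hearts and within condition, none of the 4 ratios differed at an adjusted p under 0.05 (exact permutation test, p from 0.18 to 0.99), and the largest difference was -0.21 for Prkaa2 to Prkaa1.

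Expressed as shares per exonic length, as a description without a test, Prkaa2 made up 81.0% ± 1.2 of the summed alpha level in the 10 uninjured hearts and 50.2% ± 10 in the 6 MI hearts (SD). The lowest uninjured share was 79.0% and the highest MI share 63.6%. The share after MI was 56.1% ± 12 in PKM2fl/fl and 44.3% ± 3.6 in PKM2-/- (n = 3 each). The summed alpha level itself was 550 to 690 per kilobase in uninjured hearts and 312 to 404 in MI hearts. Prkag2 made up 25.0% ± 2.3 of the gamma level in uninjured hearts and 36.2% ± 4.0 after MI, and Prkag3 made up 1.45% ± 0.36 and 1.29% ± 0.52. Prkab2 made up 32.5% ± 4.8 of the beta level in uninjured hearts and 39.6% ± 2.0 after MI. The beta order rests on the length used, since Prkab2 held 62.7% of the uninjured beta level when coding length replaced exonic length. Likewise Prkag2 held 52.0% of the gamma level in MI hearts by coding length, whereas Prkaa2 held most of the alpha level in uninjured hearts by all 3 lengths.

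**Figure D3:**
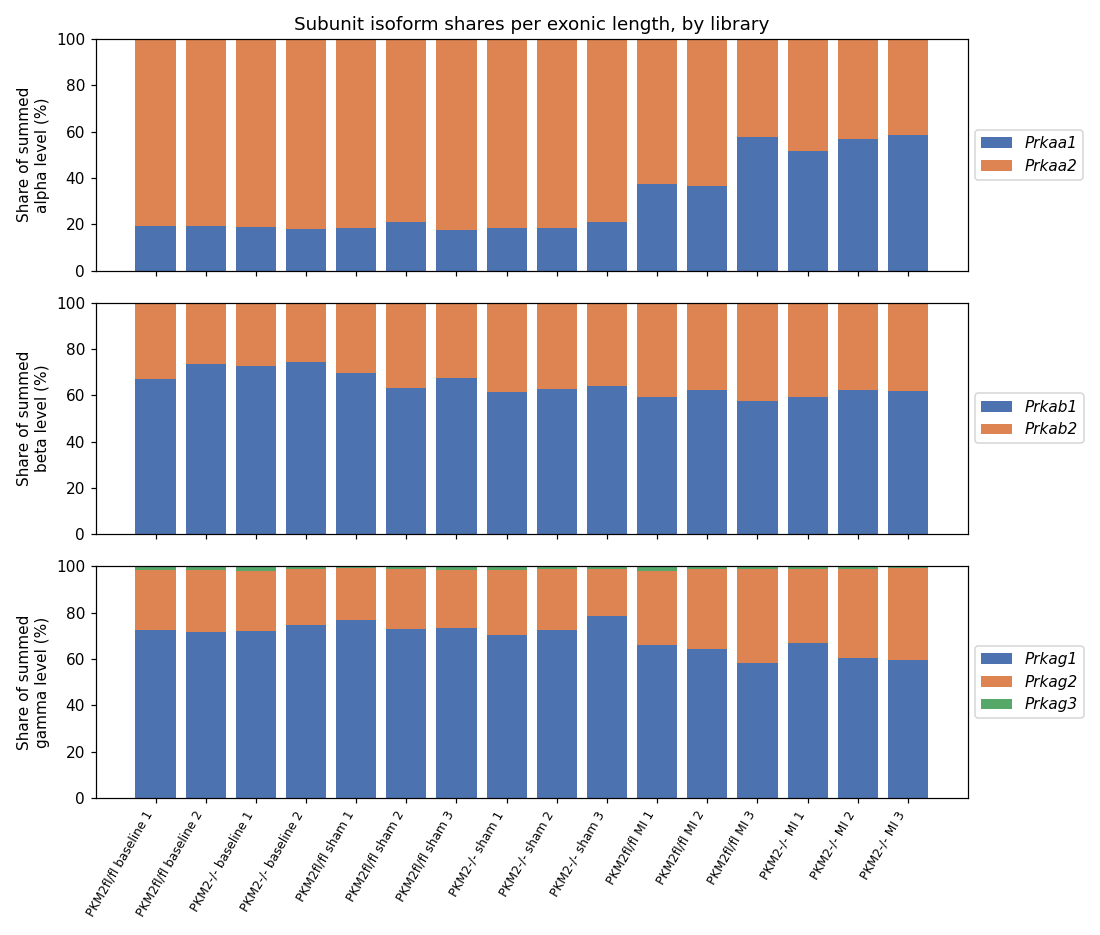
Share of each isoform in the summed alpha (top), beta (middle) and gamma (bottom) subunit level per exonic length, in percent on the vertical axis, with one stacked bar per library. In the alpha panel, Prkaa1 holds 17.7% to 21.0% in the 10 uninjured hearts and 36.4% to 58.7% in the 6 MI hearts.

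Markers of several cell types moved in the same comparisons. Of the 8 cardiomyocyte markers, 7 fell in PKM2fl/fl hearts and 8 in PKM2-/- hearts after MI, and their summed count fell by 1.63 on the log2 scale in PKM2fl/fl and fell by 2.10 in PKM2-/-. Of 8 leukocyte markers 6 rose in each genotype, from a summed 5196 to 10635 in sham hearts to 20805 to 36690.1 in MI hearts. Of 5 fibroblast markers 4 rose and 1 fell in each. Endothelial markers rose for 2 of 4 in PKM2fl/fl, and 1 of 4 rose and 1 fell in PKM2-/-. Of the 2 skeletal muscle markers that were tested, 1 rose in PKM2fl/fl and 0 in PKM2-/-, and no adipocyte or erythroid marker was called. The summed skeletal muscle markers were 37.0 to 126 in the 12 operated hearts, adipocyte markers 12.8 to 151 and erythroid markers 4519 to 19298. In such bulk samples, fewer cells of a type and less RNA per cell cannot be told apart. The part of the cell makeup in the changes of the 10 genes was not tested.

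Relative to the summed cardiomyocyte markers within each library, the count of Prkaa2 was higher after MI by 0.47 on the log2 scale in PKM2fl/fl and by 0.38 in PKM2-/-, a smaller shift than that of the 9 other genes in each genotype. The corresponding values were 2.20 and 2.79 for Prkaa1, 0.90 and 1.41 for Stk11, 1.00 and 1.49 for Prkag1, and 0.78 and 1.45 for Txnip. Prkaa2 thus fell by less than the summed markers did and by more than any other of the 10 genes. The sham and MI values of these ratios did not overlap for any of the 10 genes in PKM2-/-, and in PKM2fl/fl they overlapped for Txnip alone. The summed markers themselves fell after MI, so a gene that fell by less can separate in this ratio. The share of all genes that separate was not computed, so the separation does not set these genes apart. These ratios are a description, with no test. When Myh6, the most abundant marker, was left out of the sum, the mean shift of Prkaa2 over both genotypes was 0.20 in place of 0.42.

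**Figure D4:**
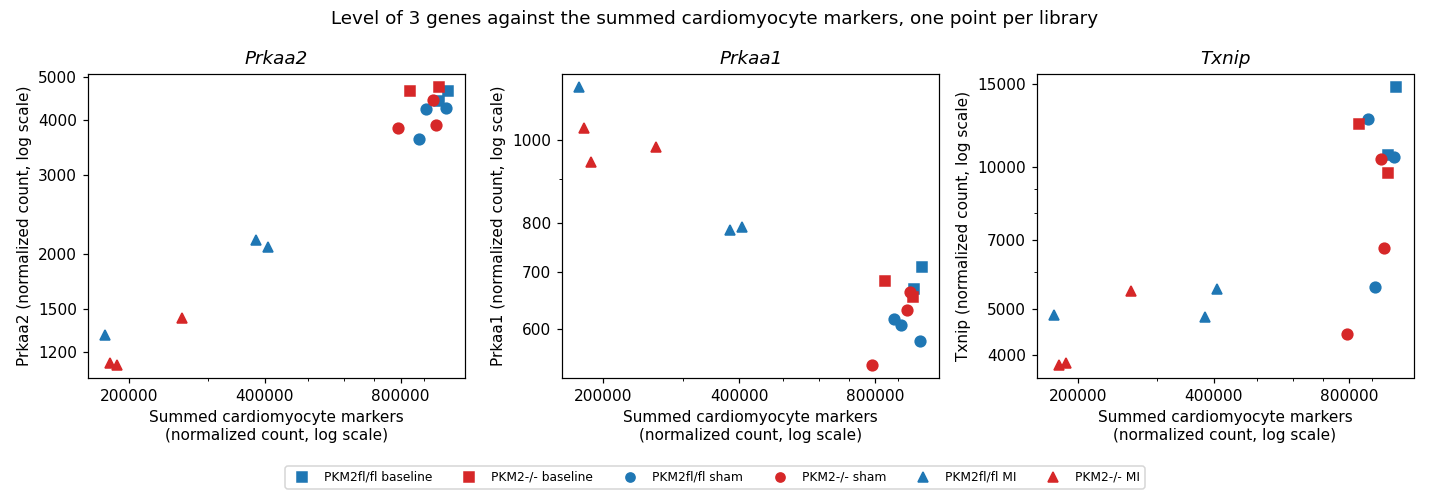
Normalized counts of Prkaa2, Prkaa1 and Txnip (vertical axes, log scale) against the summed counts of 8 cardiomyocyte markers (horizontal axes, log scale), with one point per library, shape for condition and colour for genotype. The first and second PKM2fl/fl MI libraries lie between the sham hearts and the other 4 MI libraries for Prkaa2 and Prkaa1, whereas Txnip spans 4432 to 14780.2 at uninjured marker levels.

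Between genotypes, none of the 10 genes was called by limma in any condition. At baseline and after sham surgery, 0 of 10 were called, as were 0.00972% of all genes in either comparison, with 0 at an unadjusted p under 0.05 and 0 by edgeR. DESeq2 also called 0, but at baseline it gave an adjusted p for 5 of the 10 genes only (Prkaa2, Prkag1, Prkag2, Stk11 and Txnip). Of the genes to which it gave an adjusted p, DESeq2 called 0.442% of 4297 at baseline and 1.41% of 19529 after sham surgery. Averaged over baseline, sham and MI, 0 of 10 were called against 0.102% of all genes, again with 0 at an unadjusted p under 0.05 and 0 by both count tests. In that average DESeq2 called 1.77% of the 18006 genes to which it gave an adjusted p. For Prkaa2 the averaged difference was -0.16 ± 0.10 (95% interval -0.37 to 0.04), and for Txnip it was -0.28 ± 0.19 (-0.68 to 0.12). At baseline, Prkaa2 was 4644 and 4409.9 in PKM2fl/fl and 4647 and 4728 in PKM2-/- hearts, and Txnip was 14780.2 and 10599 in PKM2fl/fl and 12388 and 9742 in PKM2-/-. These pairs lay close together or overlapped, and with 2 hearts per genotype the 95% interval of the Txnip difference at baseline ran from -0.97 to 0.60.

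After MI, 0 of 10 genes were called between genotypes by limma or edgeR, against 0.967% of all genes, while DESeq2 called 1, Prkaa2, against 5.79% of the 18006 genes to which it gave an adjusted p. Prkaa2 was 1.47-fold lower in PKM2-/- than in PKM2fl/fl MI hearts by limma (log2 fold change -0.56 ± 0.16 SE, adjusted p = 0.092) and had an adjusted p of 0.015 by DESeq2. It was the only gene of the 10 with an unadjusted p under 0.05 in this comparison (0.0028). Without the third PKM2fl/fl MI heart, the difference was -0.78 and was called (adjusted p = 5.7e-04), as was that of Prkaa1, at 0.32 (adjusted p = 0.045). The summed cardiomyocyte markers differed between PKM2-/- and PKM2fl/fl MI hearts by -0.54 on the log2 scale, with overlapping ranges and 0 of 8 markers called. Relative to that sum, Prkaa2 differed between the genotypes after MI by -0.02, and the others of the 10 genes by -0.16 (Prkag3) to 0.68 (Prkaa1). The genotypes overlapped in this ratio for all 10 genes. For each of them, the third PKM2fl/fl MI heart had the highest ratio of its group. For Prkaa1 that ratio was -7.26 and the lowest of the group -9.00, beside -8.06 to -7.46 in PKM2-/- MI hearts. Without that heart the genotypes overlapped for Prkaa2 and Prkag3 alone, and the differences given above include it. The share of all genes that overlap in this ratio was not computed. These ratios are a description, and the part of the cell makeup in the genotype difference was not tested.

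The test of whether the MI effect itself differed by genotype called 0 of 10 genes, and 0 of all 20576 genes by limma (1703 at an unadjusted p under 0.05), 0 by edgeR and 60 by DESeq2, none of them among the 10. For Prkaa2 the difference in effect was -0.57 ± 0.22 (95% interval -1.04 to -0.10, unadjusted p = 0.021, adjusted p = 0.54). Without the third PKM2fl/fl MI heart it was -0.79 with an adjusted p of 0.015, so 1 library decided this call. For Stk11 and Prkag1 the differences were 0.03 ± 0.21 (95% interval -0.41 to 0.47) and 0.01 ± 0.17 (-0.35 to 0.38).

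Sham surgery was also compared with baseline, over both genotypes. Of the 10 genes, 1 was called, Prkab1, which was lower, against 6.54% of all genes and 2.02% in that direction. With a change of at least 2-fold also required it was 0 of 10, against 2.26% of all genes. The counts of Prkab1 at baseline were 604 and 732 in PKM2fl/fl and 711 and 599 in PKM2-/-, all above the 453 to 556 of the 6 sham hearts (log2 fold change -0.39 ± 0.11 SE, adjusted p = 0.045). The call was lost when any of 12 of the 16 libraries was left out (among them all 4 baseline hearts and 5 of the 6 sham hearts, the third PKM2-/- sham heart excepted, with the second PKM2fl/fl MI heart and the second and the third PKM2-/- MI hearts; highest adjusted p 0.21, without the second PKM2fl/fl baseline heart). Txnip had a log2 fold change of -0.58 ± 0.24 (unadjusted p = 0.027, adjusted p = 0.18).

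Among genes that act on or beside AMPK, some of each list were called between MI and sham. The counts stand against 50.1% of all genes called in PKM2fl/fl and 56.8% in PKM2-/-, and no list was tested as a whole. Of 7 genes of the LKB1 complex and other upstream kinases, 2 rose and 3 fell in PKM2fl/fl, and 2 rose and 4 fell in PKM2-/-. Stradb, for a pseudokinase partner of LKB1, went from 1046 ± 43.6 in PKM2fl/fl sham hearts to 537 ± 81.1 after MI (log2 fold change -0.97 ± 0.11 SE, adjusted p = 4.8e-06) and to 426 ± 21.3 from 1034 ± 88.9 in PKM2-/- hearts (-1.27, adjusted p = 3.1e-07). Strada, the other such partner, fell as well (-0.49 in PKM2fl/fl, adjusted p = 7.4e-04). Camkk2, for the calcium-dependent kinase that can activate AMPK without LKB1, rose 1.51-fold in PKM2fl/fl (log2 fold change 0.59 ± 0.11 SE, adjusted p = 3.2e-04) and 1.37-fold in PKM2-/- (adjusted p = 0.0023).

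Of 12 AMPK-related kinases, which LKB1 also activates, 2 rose and 3 fell in PKM2fl/fl, and 2 rose and 4 fell in PKM2-/-. Snrk fell from 4861 ± 456 to 2714 ± 228 in PKM2fl/fl (log2 fold change -0.84 ± 0.11 SE, adjusted p = 2.3e-05), and Nuak2 rose from 142 ± 11.9 to 380.3 ± 99.7 (log2 fold change 1.38 ± 0.22 SE, adjusted p = 1.1e-04). Brsk1 went from 54.2 ± 8.96 to 112 ± 16.5 (log2 fold change 1.03 ± 0.19 SE, adjusted p = 4.0e-04). In both genotypes 2 of 6 AMPK regulators rose and 3 fell. Sesn1 and Sesn2 encode sestrins, stress proteins that bind AMPK, and they moved apart. Sesn1 fell 2.65-fold in PKM2fl/fl (log2 fold change -1.41 ± 0.12 SE, adjusted p = 5.8e-07) and 2.80-fold in PKM2-/-, and Sesn2 rose 2.47-fold (adjusted p = 2.4e-04) and 2.52-fold. Flcn, for folliculin, fell 1.67-fold in PKM2fl/fl (adjusted p = 9.7e-05).

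Of 12 genes for AMPK substrates, 2 rose and 8 fell in each genotype. The 2 that rose were Tbc1d1 and Acaca in either genotype. Tbc1d1, for a regulator of glucose transporter traffic, rose 2.65-fold in PKM2fl/fl (log2 fold change 1.41 ± 0.13 SE, adjusted p = 8.4e-07). Pfkfb2, for the heart form of the enzyme that makes fructose 2,6-bisphosphate, fell 2.75-fold in PKM2fl/fl (log2 fold change -1.46 ± 0.18 SE, adjusted p = 1.3e-05) and 3.63-fold in PKM2-/- (adjusted p = 1.0e-06). Foxo3, for a forkhead transcription factor, went from 5585 ± 229 to 2898 ± 163 in PKM2fl/fl (log2 fold change -0.95 ± 0.13 SE, adjusted p = 3.2e-05) and fell 1.83-fold in PKM2-/- (adjusted p = 4.7e-05). The other substrate genes that fell in both genotypes were Mff, Ppargc1a, Ulk1, Acacb, Tbc1d4 and Tsc2.

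Of the 3 genes for the transcription factors that drive Txnip and Arrdc4, Mlxipl, which encodes ChREBP, was called between genotypes after MI. It was also called, lower in PKM2-/-, averaged over baseline, sham and MI, where 0.102% of all genes were called. At baseline alone and after sham surgery alone it was not called. The baseline counts of Mlxipl were 654 and 652 in PKM2fl/fl and 592 and 508 in PKM2-/- hearts. Its later counts were 562, 573 and 617 in PKM2fl/fl sham hearts and 374, 297 and 194 in PKM2fl/fl MI hearts. In PKM2-/- hearts they were 402, 417 and 583 after sham surgery and 88.4, 88.3 and 101 after MI, below every other heart. Mlxipl fell 2.09-fold in PKM2fl/fl (log2 fold change -1.07 ± 0.19 SE, adjusted p = 3.3e-04) and 4.94-fold in PKM2-/- (log2 fold change -2.30 ± 0.19 SE, adjusted p = 3.0e-07), and it was 2.99-fold lower in PKM2-/- than in PKM2fl/fl after MI (log2 fold change -1.58 ± 0.19 SE, adjusted p = 0.0045). With only the MI libraries in the fit that difference had an adjusted p of 0.11. The difference in effect between genotypes was -1.24 ± 0.27 and was not called (adjusted p = 0.28), but it was called by DESeq2 (adjusted p = 0.0084) and without the third PKM2fl/fl MI heart (-1.498, adjusted p = 0.0038). Mlxip, which encodes MondoA, fell 1.21-fold in PKM2fl/fl (log2 fold change -0.28 ± 0.11 SE, adjusted p = 0.040) and had a log2 fold change of -0.18 ± 0.11 in PKM2-/- (adjusted p = 0.16). The PKM2fl/fl call was lost under 4 of 8 other settings (adjusted p of 0.061 to 0.26) and without any of 8 libraries (adjusted p up to 0.16), namely both PKM2fl/fl baseline hearts, the first and the third PKM2fl/fl sham hearts, the first and second PKM2fl/fl MI hearts and the second and the third PKM2-/- MI hearts. The PKM2-/- difference was called without the third PKM2-/- sham heart (-0.28, adjusted p = 0.040). Between genotypes after MI, Mlxip differed by 0.37 ± 0.11 (adjusted p = 0.098), and it was called by DESeq2 (0.36, adjusted p = 0.034) and without the third PKM2fl/fl MI heart (0.43, adjusted p = 0.021).

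Among the other arrestin genes, 3 of the 5 tested rose and 1 fell in each genotype. The beta-arrestin genes Arrb2 and Arrb1, which regulate G protein-coupled receptors, rose 2.79-fold (log2 fold change 1.48 ± 0.17 SE, adjusted p = 7.5e-06) and 1.62-fold (log2 fold change 0.70 ± 0.10 SE, adjusted p = 3.2e-05) in PKM2fl/fl. Arrdc5, a low-count gene, went from 58.2, 42.1 and 33.3 to 6.18, 2.14 and 3.66 in PKM2fl/fl, and from 25.7, 44.4 and 49.6 to 8.92, 3.81 and 0 in PKM2-/-, on 0 to 11 reads per MI library. Of the 3 thioredoxin-system genes tested, 2 rose and 1 fell in each genotype. Txn1, for the cytosolic thioredoxin that TXNIP binds, rose 1.40-fold in PKM2fl/fl (log2 fold change 0.49 ± 0.12 SE, adjusted p = 0.0030) and 2.12-fold in PKM2-/- (log2 fold change 1.08 ± 0.12 SE, adjusted p = 2.7e-06). Txnrd1, for its reductase, rose 1.72-fold in PKM2fl/fl (adjusted p = 2.0e-04), and Txn2, for the mitochondrial thioredoxin, fell 1.97-fold (adjusted p = 7.1e-05). Txn1 was 1.44-fold higher in PKM2-/- than in PKM2fl/fl MI hearts (log2 fold change 0.53 ± 0.12 SE, adjusted p = 0.049), a call lost under 7 of 8 other settings (edgeR adjusted p = 0.051) and without any of 12 of the 16 libraries (adjusted p up to 0.15), the exceptions being the second PKM2fl/fl sham heart, the third PKM2fl/fl MI heart and the second and the third PKM2-/- sham hearts. Under total-count scaling, the MI changes of Camkk2, Strada, Brsk1, Arrb1, Txnrd1 and Txn1 in PKM2fl/fl (adjusted p of 0.075 to 0.48) and of Strada, Snrk, Flcn, Foxo3 and Txn2 in PKM2-/- (adjusted p of 0.22 to 0.95) kept their direction but were not called. Without the third PKM2fl/fl MI heart, 3 further genes of those named here were called between genotypes after MI, namely Stradb (-0.44, adjusted p = 0.0077), Nuak2 (0.84, adjusted p = 0.032) and Pfkfb2 (-0.84, adjusted p = 0.0027), of which DESeq2 also called Pfkfb2 (adjusted p = 0.026).

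**Figure D5:**
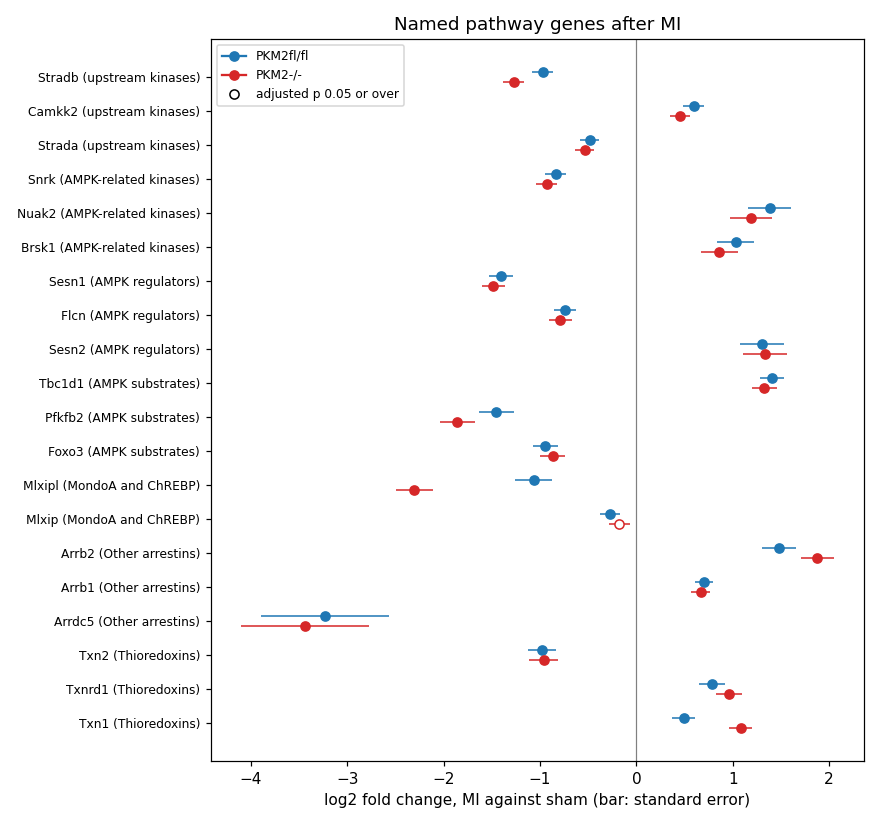
Log2 fold change between MI and sham hearts (horizontal axis, bar: standard error) of the genes named from each pathway list, in PKM2fl/fl (blue) and PKM2-/- (red), with open circles for an adjusted p of 0.05 or over. The point of Mlxipl lies at -1.07 in PKM2fl/fl and -2.30 in PKM2-/-, the widest gap between genotypes among these 20 genes.

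Over all 16 libraries, as a description in which points share the groups and the MI effect, the 5 genes most like Prkaa2 in log2 level were Syt2, Abcc9, Usp13, Fam210a and Gm4814, with a Pearson r between 0.995 and 0.996. Abcc9 encodes the sulfonylurea receptor of the cardiac potassium channel that ATP closes. Among the other 9 genes described here, Prkag1 followed Prkaa2 most closely (r = 0.94), then Stk11 (r = 0.89), and Prkaa1 ran against it (r = -0.90). The 5 genes most like Txnip were its antisense partner Gm15441 (r above 0.999), Gm42987 (r = 0.93), Gm31356 (r = 0.92), the anion exchanger gene Slc26a6 (r = 0.92) and Ucp3 (r = 0.92), which encodes a mitochondrial uncoupling protein. The r between Txnip and Arrdc4 was 0.0040.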

How the data were processed

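Left ventricles of 16 male mice were sequenced as rRNA-depleted, paired-end libraries, 1 per mouse. Groups were read from the sample labels. Per the labels and the study's methods, the authors trimmed the reads (PRINSEQ), aligned them to mm10 (HISAT2), counted them per gene (featureCounts) and normalized with DESeq2. The deposited signal is each gene's reads over the size factor of its library, a normalized read count. The same table holds the authors' own log2 fold changes, Wald score and p-values for the baseline comparison, which were not used. Annotation and strand settings of the counting are not given in the sources used here.

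Division by each library's step gave whole reads for 100% of values above 0 (within 0.01 of a read, or a relative 1e-06 for large counts). Library totals were 20623769 to 71855101, and p-values rest on 2 or 3 mice per group. Because the deposited values are normalized, limma 3.58.1 (trend) in R 4.3.3 was fitted to log2(value + 1), with 6 group means over 16 libraries, after genes whose mean was under 10 had been dropped, which left 20576. Benjamini-Hochberg adjustment was over all genes tested. The fit was tested on simulated data.

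Alternatives were edgeR 4.0.16 (quasi-likelihood) and DESeq2 1.42.0 on the recovered reads, TMM and total-count scaling, a pseudocount of 0.1, no filter, only the groups compared, a replicate block and each library left out. Isoform ratios were compared by exact permutation. Exon lengths and overlapping loci came from GENCODE M39 (GRCm39), without its coordinates. Positions and promoters came from RefSeq (GRCm38.p6). The 10 genes and the pathway and marker lists were chosen with earlier results of these data known. Named from each pathway list are up to 3 called genes with the smallest adjusted p between MI and sham in PKM2fl/fl, and, for likeness, the 5 genes with the highest r with Prkaa2 and with Txnip. Acaca, Mff, Ppargc1a, Ulk1, Acacb, Tbc1d4 and Tsc2 were named after their values were seen. In the list of AMPK substrates, 1 gene is not reported here.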

Additional observations from a re-analysis of the deposited data

How the results depend on the processing

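Prkag3 had the lowest counts of the 10 genes, and every group held 2 or 3 mice, which limits the precision of all values. The number of the 10 genes called between MI and sham ranged from 4 to 6 in PKM2fl/fl and from 4 to 6 in PKM2-/- when single libraries were left out. With a change of at least 2-fold also required, 1 gene was called in each of these comparisons and 0 between sham and baseline. Between sham and baseline the count was also 0 under the replicate block, with no filter on low values and under total-count scaling, and 0 to 1 when single libraries were left out. After MI, DESeq2 called 1 gene between genotypes, and the range over libraries left out was 0 to 2, with 2 without the third PKM2fl/fl MI heart. That omission also gave 1 call in the difference of the MI effect, where all other omissions gave 0. Leaving out single libraries moved the log2 ratio of Prkab2 to Prkab1 (MI against sham) between 0.22 and 0.32.

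The replicate number pairs no mice. Same-numbered libraries had correlated deviations of -0.20 to 0.13 between groups, and with same-numbered pairs as a replicate block the ratio differences were -2.07 (Prkaa2 to Prkaa1), 0.80 (Prkag2 to Prkag1) and -0.93 (Txnip to Arrdc4), each with an adjusted p of 0.062, where 6 pairs cannot give an exact permutation p under 0.031. In the limma fits, the block took away the calls of Prkab1 between MI and sham in PKM2fl/fl (adjusted p = 0.058) and between sham and baseline (adjusted p = 0.11), and changed no other call of the 10 genes.

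By coding length, the shares in uninjured and MI hearts were 87.1% and 61.1% for Prkaa2, 62.7% and 69.8% for Prkab2, and 38.99% and 52.0% for Prkag2. By the longest transcript they were 25.8% and 32.1% for Prkab2 and 38.4% and 51.4% for Prkag2. Without Myh6, the shift of Prkaa2 relative to the cardiomyocyte markers was 0.20. Total-count scaling moved the median of all genes by -0.59, -0.32 and 0.36 in the genotype comparisons at baseline, after sham surgery and after MI, by -0.19 averaged over conditions and by 0.67 in the difference of MI effects. Under it, the uncalled values of Prkab2, Prkag2 and Arrdc4 in PKM2fl/fl and of Prkab1 and Prkab2 in PKM2-/- changed sign. The cause of the other changes was not tested.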
